A study of Mus musculus with 18 samples.

Results

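The surfactant protein genes Sftpa1, Sftpb, Sftpc and Sftpd were followed across 6 groups of fetal mouse lung. They were chosen by symbol under a rule that used no measured value, though with earlier results of these data known. They are 4 of the 18193 gene symbols on the array. The platform annotation gave them 6 probe sets: 1422334_a_at and 1429626_at for Sftpa1, 1437028_at for Sftpb, 1418639_at and 1438290_x_at for Sftpc, and 1420378_at for Sftpd. All 6 are reported, and a gene was counted by its probe set of highest mean over the 18 arrays, which was 1422334_a_at for Sftpa1 and 1418639_at for Sftpc.

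Lung RNA of BALB/c fetuses was hybridized on 18 Affymetrix MOE430 2.0 arrays, 3 for each group. The groups at gestational day (GD) 18 were males from dams injected with flutamide (18 flut), males from dams injected with vehicle (18 m) and females from vehicle dams (18 f), and the GD17 groups were 17 flut, 17 m and 17 f in the same sense. Flutamide blocks the androgen receptor. Dams received 1 mg under the skin each day, or the vehicle, starting at GD10 and ending on the eve of harvest. Since the drug went to the dam and flutamide females were not among the groups, the treatment can be read in male fetuses alone. By the methods of the study, each array carried RNA of 3 fetuses of one sex, each from another litter, so a pool is the replicate. Values below are log2 of the deposited intensity. A difference is on the log2 scale and positive where the group named first is higher, and called means a Benjamini-Hochberg adjusted p under 0.05 in a limma model of all 45037 probe sets tested.

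Pulmonary surfactant is the film of lipid and protein that lowers surface tension in the air spaces, and alveolar type II cells make it from late gestation on. Surfactant proteins B and C, encoded by Sftpb and Sftpc, are small hydrophobic proteins that help the lipids spread. Surfactant proteins A and D, encoded by Sftpa1 and Sftpd, are collectins, secreted lectins with a collagen-like stalk that bind microbes, and club cells of the airways also make several of these proteins. In the mouse annotation of GRCm38.p6, Sftpa1 and Sftpd lie on chromosome 14 with Mbl1, the gene of a mannose-binding lectin, as the protein-coding gene between them.

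Promoter sequence from RefSeq (GRCm38.p6) was found for 2 of the 4 members. It is shown because these genes moved together across the pools, and whether the sequence has a part in that was not tested. The 250 bases before the annotated start are given for Sftpa1 at chr14:41131538-41131787 and for Sftpb at chr6:72304360-72304609, both on the plus strand, with motif matches in capitals.
Sftpa1: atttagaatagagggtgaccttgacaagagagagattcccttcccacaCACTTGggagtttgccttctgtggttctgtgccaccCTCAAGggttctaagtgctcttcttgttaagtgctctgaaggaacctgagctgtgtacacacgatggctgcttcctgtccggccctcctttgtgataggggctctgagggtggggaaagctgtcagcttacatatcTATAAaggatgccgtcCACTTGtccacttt
Sftpb: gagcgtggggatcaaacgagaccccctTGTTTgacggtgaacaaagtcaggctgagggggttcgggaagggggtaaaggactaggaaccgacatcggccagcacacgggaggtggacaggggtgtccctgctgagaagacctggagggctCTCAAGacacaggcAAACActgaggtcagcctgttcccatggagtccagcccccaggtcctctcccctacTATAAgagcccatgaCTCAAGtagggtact
The motifs searched, on both strands, were TATAA (the core of a TATA box), CTCAAG and CAAGTG (cores bound by NKX2-1, the lung and thyroid homeodomain factor, and its relatives), TGTTT (a forkhead core) and AGAACA (a half-site of the androgen and glucocorticoid receptors). TATAA stood at -30 to -26 from the start in both genes. CTCAAG stood at -166 to -161 in Sftpa1 and at -100 to -95 and -15 to -10 in Sftpb. CAAGTG was found on the minus strand of Sftpa1 at -202 to -197 and -14 to -9, and TGTTT in Sftpb at -223 to -219 and, on the minus strand, at -86 to -82. No marked match overlapped another, and AGAACA matched in neither window. Among all 32851 promoter windows of 250 bases, 22.8% held TATAA, 13.3% CTCAAG, 11.6% CAAGTG, 46.4% TGTTT and 16.1% AGAACA, so each of these letter strings is common and a match is a description of the sequence alone. The motifs were chosen with the promoter sequences in view, so these shares are no test of the matches.

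Several pools stood apart from the rest, and some of the results that rest on them are given with and without them. Genes of the exocrine pancreas (8 of 10 measured, scored as the median over the genes of log2 minus the mean of each gene) scored 3.49, 3.40 and 2.87 in 17 f pool 2, 17 f pool 3 and 17 m pool 3, against -0.99 to -0.40 in the other 15 pools. Genes of the liver (8 of 9 measured) scored 3.17 in 18 m pool 3, against -2.28 to 2.01 in the other pools. This score was 2.01 in 18 flut pool 2, and 1.66, 1.68 and 1.59 in 17 f pool 2, 17 f pool 3 and 17 m pool 3. In 18 m pool 3 the 3' minus 5' difference of the Gapdh control was 0.39, against -0.27 to -0.14 in the other pools. In 18 flut pool 3, labelled male, Xist was at 11.95 and the Y-linked Eif2s3y at 7.21, against 8.15 and 8.08 for Xist and 8.04 and 8.16 for Eif2s3y in 18 flut pools 1 and 2. In the 18 f pools Xist was at 12.33 to 12.51 and Eif2s3y at 3.31 to 3.64. Whether 18 flut pool 3 held RNA of both sexes was not tested, and it was kept under its label. Of the 3 pancreas-rich pools, none was among the flutamide groups.

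All 4 genes were higher at GD18 than at GD17 in vehicle males, in vehicle females and in flutamide-treated males, with no overlap between the pools of the 2 days by the probe set of highest mean. In males the fold ran from 1.45 for Sftpc, which lay near the top of the scale at GD18, to 15.5 for Sftpd, whose lowest GD17 pools (6.49 in 17 m, 6.45 in 17 f) lay near the median of all probe sets, 6.38. By the probe set of highest mean, 4 of 4 members were called higher in each of the 3 groups. The share of all probe sets called in either direction was 25% in males, 33.6% in females and 20.3% in flutamide-treated males, and the share called higher was 12.4%, 16.5% and 9.61%. Pools lay apart and higher at GD18 for 16.7% of all probe sets in males, 24.6% in females and 18.3% in flutamide-treated males. The median member difference was 2.18 in males, 2.31 in females and 1.84 in flutamide-treated males, where the median over all probe sets was 0.01, 0.02 and -0.01. The median absolute difference over all probe sets, a measure of their typical size, was 0.14, 0.16 and 0.12. In lung RNA as a whole, more cells of a type and more RNA in each cell cannot be told apart.

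**Figure D1:**
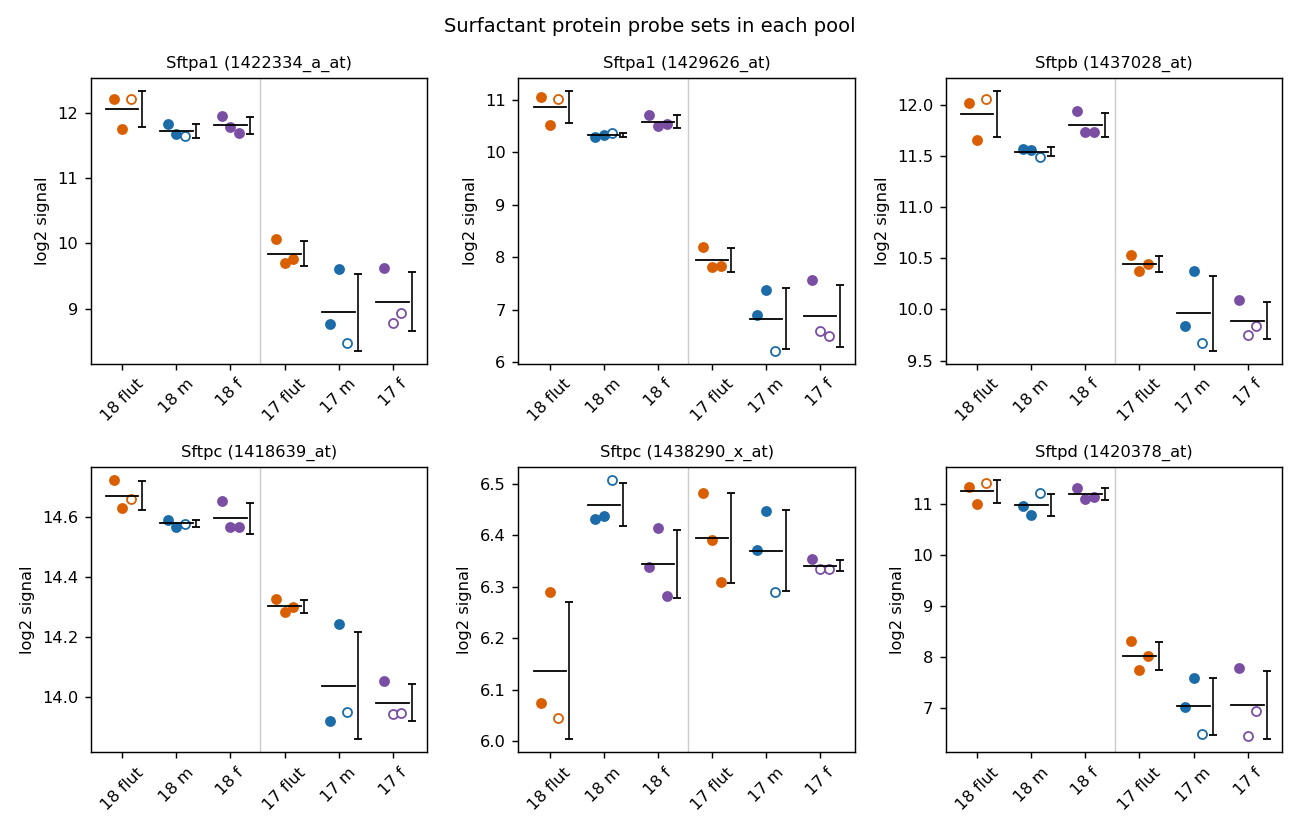
Log2 signal of the 6 surfactant protein probe sets in each of the 18 pools, with 1 panel per probe set on its own scale, GD18 groups left and GD17 groups right. Each point is a pool, horizontal lines are means and bars SD over 3 pools, and open circles mark the pools that stood apart (pool 3 of 18 flut, 18 m and 17 m, and pools 2 and 3 of 17 f). In 5 of the 6 panels every GD18 pool lies above every GD17 pool, while Sftpc 1438290_x_at stays between 6.05 and 6.51.

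Sftpb, which encodes the protein without which the lipid film does not form, was at 11.57, 11.56 and 11.49 in 18 m, against 9.84, 10.37 and 9.67 in 17 m. In females it was at 11.94, 11.74 and 11.73 at GD18, against 10.09, 9.75 and 9.84 at GD17. The flutamide-treated males had 12.01, 11.66 and 12.06 at GD18, against 10.53, 10.37 and 10.44 at GD17. The lowest GD18 pool, at 11.49, thus lay above the highest GD17 pool, at 10.53. The difference was 1.58 in males (2.98-fold, standard error 0.15, adjusted p = 2.931e-06), 1.91 in females (3.76-fold, standard error 0.15, adjusted p = 1.406e-07) and 1.46 in flutamide-treated males (2.76-fold, standard error 0.15, adjusted p = 6.806e-06).

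Sftpc, a gene largely confined to type II cells and their distal epithelial progenitors, was bright on both days. Its probe set 1418639_at was at 14.59, 14.57 and 14.58 in 18 m, against 13.92, 14.24 and 13.95 in 17 m. The females had 14.65, 14.56 and 14.57 at GD18, against 14.05, 13.94 and 13.95 at GD17. In flutamide-treated males it was at 14.72, 14.63 and 14.66 at GD18, against 14.33, 14.28 and 14.30 at GD17. The groups of the 2 days did not overlap. The difference was 0.54 in males (1.45-fold, standard error 0.07, adjusted p = 7.018e-05), 0.61 in females (1.53-fold, adjusted p = 7.457e-06) and 0.37 in flutamide-treated males (1.29-fold, adjusted p = 0.001822). These values lay 0.16 to 0.30 below the highest value on their arrays at GD18 and 0.49 to 0.88 below it at GD17, and the part that the upper end of the scale plays in the size of the difference was not tested.

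The other probe set of Sftpc, 1438290_x_at, did not follow this course. The suffix x_at marks probe sets in which the design found probes shared with other sequences. It was at 6.43, 6.44 and 6.51 in 18 m, against 6.37, 6.45 and 6.29 in 17 m, near the median of all probe sets on these arrays, 6.38. Its day difference was 0.09 in males (95% interval -0.06 to 0.24, adjusted p = 0.4273) and 0.00 in females (-0.15 to 0.16, adjusted p = 0.9786). In flutamide-treated males it was at 6.07, 6.29 and 6.05 at GD18, against 6.48, 6.39 and 6.31 at GD17, a difference of -0.26 called lower (standard error 0.07, adjusted p = 0.01743), as were 10.7% of all probe sets. This call was lost without 17 flut pool 1, 18 flut pool 1 or 18 flut pool 3 (adjusted p = 0.08751, 0.07659 and 0.09172). Within GD18 its pools ran against those of 1418639_at, with r = -0.79 over 9 pools, while within GD17 the r was 0.58. A change of Sftpc is read here from 1418639_at alone.

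Sftpa1, the surfactant protein A gene, was at 11.84, 11.68 and 11.64 in 18 m, against 8.76, 9.61 and 8.46 in 17 m, in 1422334_a_at. The females had 11.96, 11.79 and 11.70 at GD18, against 9.61, 8.78 and 8.93 at GD17. The flutamide-treated males had 12.22, 11.75 and 12.22 at GD18, against 10.06, 9.70 and 9.77 at GD17. The lowest GD18 pool, at 11.64, lay above the highest GD17 pool, at 10.06. The difference was 2.78 in males (6.86-fold, standard error 0.24, adjusted p = 1.859e-06), 2.71 in females (6.54-fold, adjusted p = 4.717e-07) and 2.22 in flutamide-treated males (4.66-fold, adjusted p = 1.228e-05). The second probe set, 1429626_at, gave larger differences of 3.49 in males (11.2-fold), 3.70 in females and 2.91 in flutamide-treated males (7.51-fold), all called. Its lowest GD17 pool, at 6.22 in 17 m, lay below the median of all probe sets, 6.38.

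Sftpd, the surfactant protein D gene, was at 10.95, 10.79 and 11.22 in 18 m, against 7.02, 7.60 and 6.49 in 17 m. In females it was at 11.32, 11.11 and 11.14 at GD18, against 7.78, 6.45 and 6.94 at GD17. In flutamide-treated males it was at 11.34, 10.99 and 11.41 at GD18, against 8.31, 7.76 and 8.02 at GD17. The gap between the lowest GD18 and the highest GD17 pool was the widest of the 4 genes. The difference was 3.95 in males (15.5-fold, standard error 0.28, adjusted p = 4.272e-07), 4.13 in females (17.5-fold, adjusted p = 6.97e-08) and 3.22 in flutamide-treated males (9.32-fold, adjusted p = 2.646e-06). It ranked 2 of 45037 probe sets by size of increase in males and in females, and 4 in flutamide-treated males.

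The day differences were also fitted without the pools that stood apart. Without 17 m pool 3 and 17 f pools 2 and 3, the day difference in males was 1.43 for Sftpb, 0.50 for Sftpc, 2.54 for Sftpa1 and 3.68 for Sftpd, and in females it was 1.71 for Sftpb, 0.54 for Sftpc, 2.20 for Sftpa1 and 3.41 for Sftpd, all called (limma, adjusted p of 0.002919 or less). In that fit 17 f had 1 pool, the highest of its group in the members, and its spread was assumed to be that of the other groups. Without 18 m pool 3 and 18 flut pool 3, the difference in flutamide-treated males was 1.39 for Sftpb, 0.37 for Sftpc, 2.14 for Sftpa1 and 3.14 for Sftpd, all called.

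**Figure D2:**
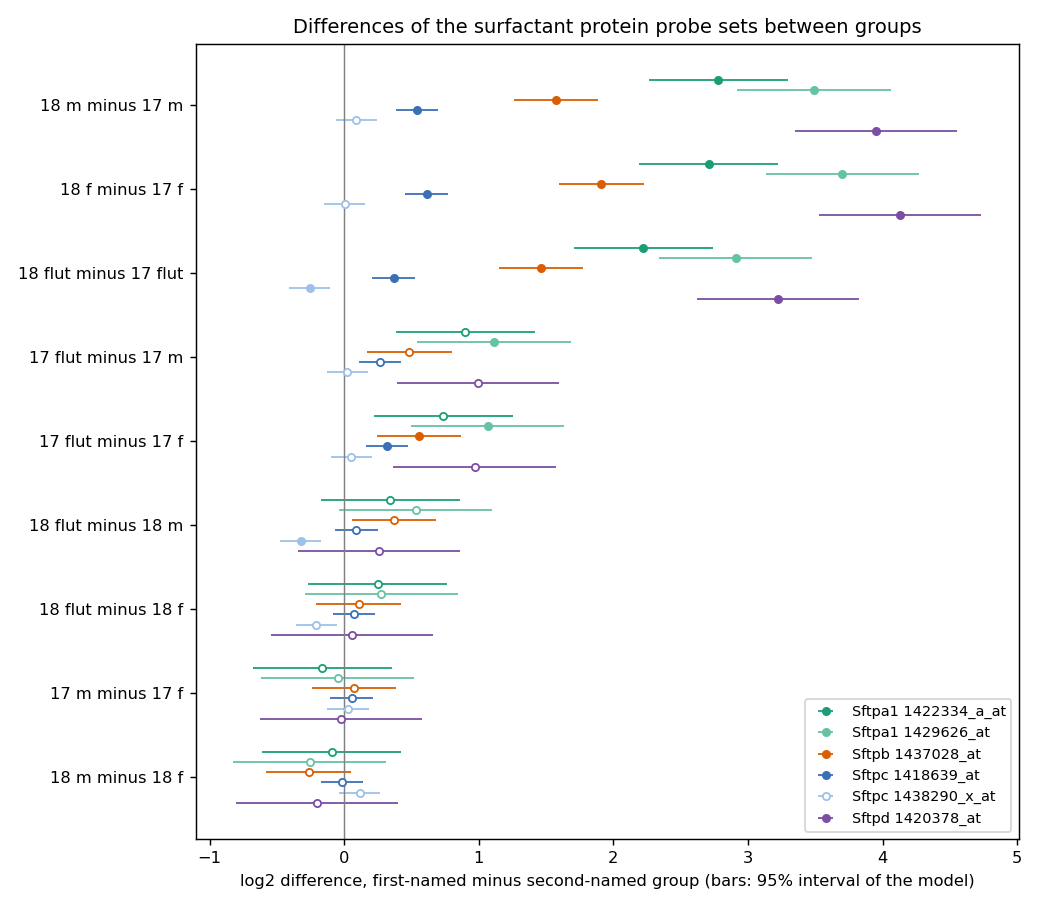
Log2 difference of each surfactant protein probe set (horizontal axis) in 9 comparisons (vertical axis), as the group named first minus the other. Points are model estimates, bars 95% intervals, and filled points have an adjusted p under 0.05. The GD18 minus GD17 differences of 5 probe sets lie above 0 in males, females and flutamide-treated males, and the interval of every sex difference includes 0.

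The ordering of the 6 group means was shared by the members down to its lower end. With all pools, 18 flut was highest in all 4 genes, followed by 18 f, 18 m and 17 flut. Without 18 flut pool 3, the pool with the high Xist, the Sftpd difference between 18 flut and 18 f was -0.021. This order then no longer held for Sftpd. The 2 lowest means were 17 f above 17 m for Sftpa1 (9.11 and 8.94) and Sftpd (7.06 and 7.04), and 17 m above 17 f for Sftpb (9.96 and 9.89) and Sftpc (14.04 and 13.98). By the probe set of highest mean, the single step between neighbours in this order that passed the test was the one from 17 flut to 18 m. In Sftpa1 1429626_at, where 17 f (6.88) lay above 17 m (6.84), the step from 17 f to 17 flut also passed (1.07, limma adjusted p = 0.03863).

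The comparison of flutamide-treated with vehicle males at GD17 asks whether blocking androgen action in the male fetus alters these genes at the onset of surfactant production. All 4 genes had higher means in 17 flut than in 17 m, from 1.20-fold for Sftpc to 1.99-fold for Sftpd, but 0 of 4 were called by the probe set of highest mean, where 3.55% of all probe sets were called and 1.28% called higher. All 4 had an unadjusted p under 0.05 in the same limma model, and their adjusted p lay between 0.05248 and 0.07902. The share of all probe sets under that unadjusted threshold is not given, here or below. The 4 genes also ran together over the pools (r of 0.72 to 0.96 on deviations from the group means), so they are not 4 independent results. The second Sftpa1 probe set passed. Pools did not overlap for Sftpa1, Sftpc and Sftpd, as for 14.6% of all probe sets in this direction. The median member difference was 0.69, where over all probe sets the median was 0.02 and the median absolute difference 0.11.

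By gene, Sftpa1 at 10.06, 9.70 and 9.77 in 17 flut stood 0.90 above 17 m, which had 8.76, 9.61 and 8.46 (1.86-fold, standard error 0.24, 95% interval 0.38 to 1.42, adjusted p = 0.05248). Its probe set 1429626_at was at 8.20, 7.81 and 7.83 in 17 flut, against 6.90, 7.38 and 6.22 in 17 m, and was called higher by 1.11 (2.16-fold, standard error 0.27, adjusted p = 0.03409), and ranked 3 of 45037 probe sets by size of increase. The value of 6.22, in the pancreas-rich 17 m pool 3, lay below the median of all probe sets, 6.38. Sftpd at 8.31, 7.76 and 8.02 stood 0.99 above 7.02, 7.60 and 6.49 (1.99-fold, standard error 0.28, interval 0.39 to 1.59, adjusted p = 0.06495). Sftpb differed by 0.49 (1.40-fold, interval 0.17 to 0.80, adjusted p = 0.07902), and pool 2 of 17 m, at 10.37, reached the lowest 17 flut pool. Sftpc differed by 0.26 (1.20-fold, interval 0.11 to 0.42, adjusted p = 0.05876). Its probe set 1438290_x_at differed by 0.02 and was not called.

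Against the vehicle females of the same day, 17 flut was called higher in 2 of 4 genes, Sftpb and Sftpc, with 4.39% of all probe sets called and 2.66% called higher. Sftpb was at 10.53, 10.37 and 10.44 in 17 flut, against 10.09, 9.75 and 9.84 in 17 f, a difference of 0.56 (1.47-fold, standard error 0.15, adjusted p = 0.0458). Sftpc was at 14.33, 14.28 and 14.30 in 17 flut, against 14.05, 13.94 and 13.95 in 17 f, a difference of 0.32 (1.25-fold, standard error 0.07, adjusted p = 0.02849). Neither gene had overlapping pools, as for 18.9% of all probe sets in this direction. Sftpa1 differed by 0.74 in 1422334_a_at (interval 0.22 to 1.25, adjusted p = 0.08967) and was called in 1429626_at, by 1.07 (2.09-fold, adjusted p = 0.03863). Sftpc 1438290_x_at differed by 0.05 and was not called. Sftpd differed by 0.97 (interval 0.37 to 1.57, adjusted p = 0.06242), with 17 f pool 1, at 7.78, above the lowest 17 flut pool, at 7.76. Without the pancreas-rich pools 17 f kept pool 1 alone, the highest of its group in the members, with the spread taken from the other groups. In that fit 0 of the 4 genes were called by limma, and the differences were 0.35 for Sftpb (adjusted p = 0.599), 0.25 for Sftpc (adjusted p = 0.5149), 0.23 for Sftpa1 and 0.25 for Sftpd.

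**Figure D3:**
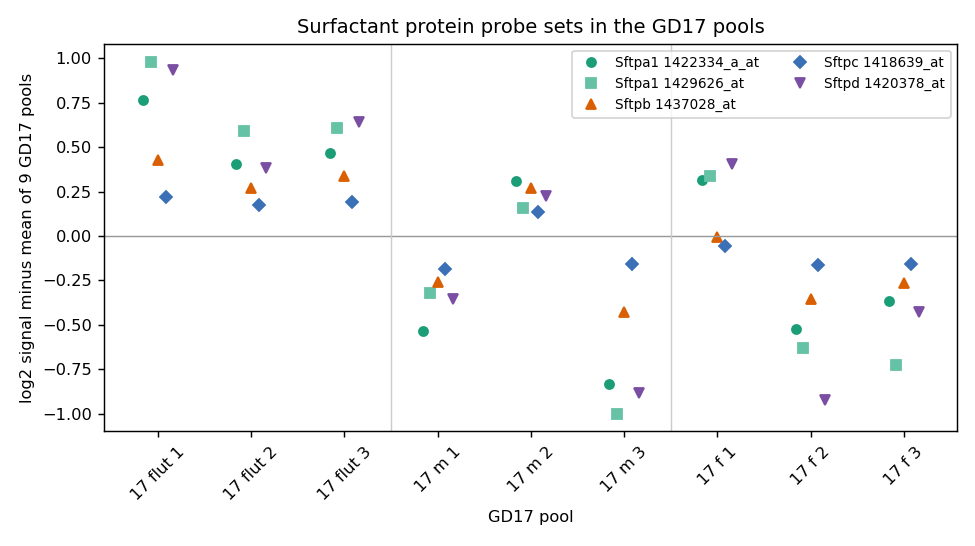
Log2 signal of 5 surfactant protein probe sets (Sftpc by 1418639_at) in each GD17 pool, minus the mean of the 9 GD17 pools. Each symbol is a probe set, and 17 m pool 2 and 17 f pool 1 lie above the other pools of their own group in all 5.

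The GD17 vehicle pools differed among themselves in a manner shared by the 4 genes. Sftpa1 was highest in pool 2 of 17 m (9.61) and in pool 1 of 17 f (9.61), and the other 4 vehicle pools lay between 8.46 and 8.93. The same 2 pools led in Sftpb, Sftpc and Sftpd. Among the other 4, pool 3 of 17 m and pools 2 and 3 of 17 f were the pancreas-rich ones, while pool 1 of 17 m was low in the members (8.76 for Sftpa1, 7.02 for Sftpd) with a pancreas score of -0.40. The SD over the 6 vehicle pools of a day was 0.12 at GD18 and 0.48 at GD17 for Sftpa1, and 0.19 at GD18 and 0.55 at GD17 for Sftpd. It was 0.17 at GD18 and 0.26 at GD17 for Sftpb, and 0.034 at GD18 and 0.12 at GD17 for Sftpc. Without 17 m pool 3 the difference between 17 flut and 17 m was 0.66 for Sftpa1 (adjusted p = 0.1405), 0.34 for Sftpb, 0.22 for Sftpc and 0.72 for Sftpd, each smaller than with all pools. With an indicator of the 3 pancreas-rich pools in the model it was 0.65 for Sftpa1 (adjusted p = 0.06591), 0.36 for Sftpb, 0.23 for Sftpc and 0.67 for Sftpd.

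**Figure D4:**
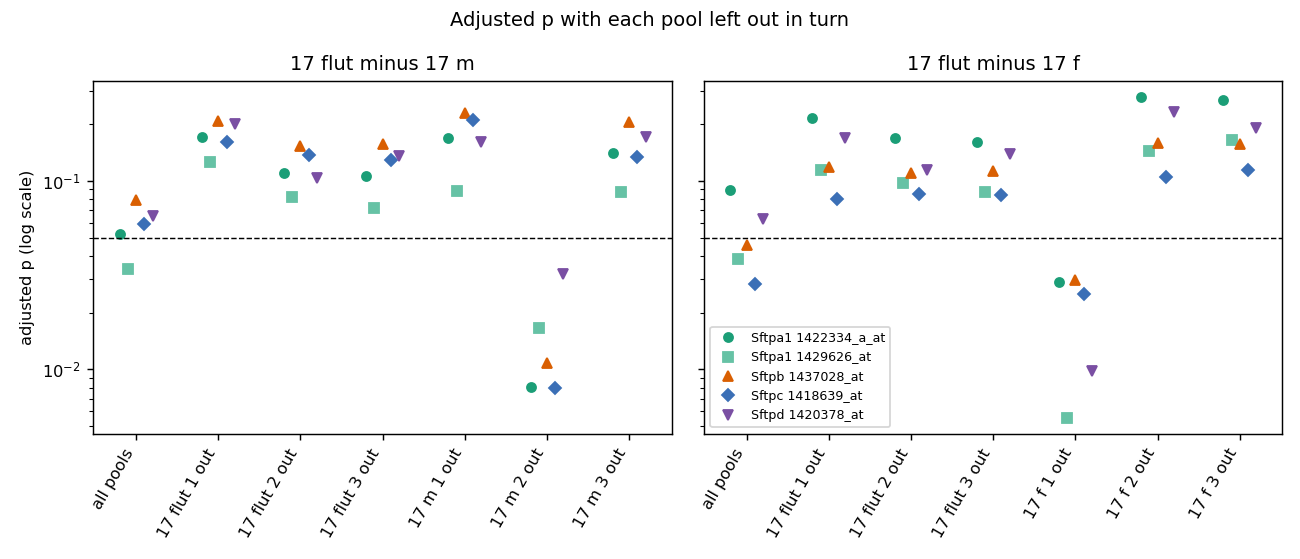
Adjusted p (log scale) of 5 surfactant protein probe sets with all pools and with each pool left out in turn, for 17 flut minus 17 m (left) and 17 flut minus 17 f (right). The dashed line is the threshold of 0.05. All 5 lie under it without 17 m pool 2 at left, and without 17 f pool 1 at right.

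Both GD17 counts moved when pools were left out. Without 17 m pool 2, 4 of 4 genes were called higher in 17 flut than in 17 m, with differences of 1.23 for Sftpa1 (adjusted p = 0.00802), 0.69 for Sftpb (adjusted p = 0.01081), 0.37 for Sftpc (adjusted p = 0.008006) and 1.27 for Sftpd (adjusted p = 0.03192). Without any of the other 5 pools, 0 of 4 were called, and 1429626_at lost its call. The share of all probe sets called higher in these fits was 1.09% without 17 m pool 2, 1.48% without 17 m pool 3 and 0.184% to 0.413% without each of the other 4, against 1.28% with all pools. Against females, the count of 2 changed with every pool left out: 4 of 4 were called without 17 f pool 1, and 0 of 4 without any of the other 5 pools. There 2.71% of all probe sets were called higher without 17 f pool 1 and 0.204% to 0.766% without each of the others, against 2.66% with all pools.

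Flutamide-treated and vehicle males were compared at GD18 in the same way. Of the 4, 0 were called by limma between 18 flut and 18 m, where 3.95% of all probe sets were called, and 1 (Sftpb) had an unadjusted p under 0.05. Sftpb was at 12.01, 11.66 and 12.06 in 18 flut, against 11.57, 11.56 and 11.49 in 18 m, a difference of 0.37 (1.29-fold, 95% interval 0.06 to 0.68, adjusted p = 0.1978). The difference was 0.34 for Sftpa1 (interval -0.17 to 0.86, adjusted p = 0.5066), 0.09 for Sftpc (interval -0.07 to 0.25, adjusted p = 0.5668) and 0.26 for Sftpd (interval -0.34 to 0.86, adjusted p = 0.691). Without 18 flut pool 3, the pool with the high Xist, it was 0.30 for Sftpb and 0.26 for Sftpa1. Pools did not overlap for Sftpb and Sftpc, as for 9.26% of all probe sets in this direction. Nor did they in Sftpa1 1429626_at, at 11.05, 10.51 and 11.01 in 18 flut and 10.29, 10.33 and 10.37 in 18 m. Its difference was 0.53 and not called in the same limma model (adjusted p = 0.3265). The exception was Sftpc 1438290_x_at, which was at 6.07, 6.29 and 6.05 in 18 flut, against 6.43, 6.44 and 6.51 in 18 m, and was called lower, with a difference of -0.32 (standard error 0.07, adjusted p = 0.01879), as were 3.21% of all probe sets. Without 18 flut pool 3, the pool with the high Xist, that difference was -0.28 (adjusted p = 0.09528), and without 18 flut pool 1 it was -0.29 (adjusted p = 0.08434).

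Against females of the day, 18 flut had 0 of 4 genes called by limma, and 0 with an unadjusted p under 0.05, with 0.278% of all probe sets called. The differences were 0.25 for Sftpa1 (interval -0.27 to 0.76), 0.11 for Sftpb (interval -0.21 to 0.42), 0.07 for Sftpc (interval -0.08 to 0.23) and 0.06 for Sftpd (interval -0.54 to 0.66). Sftpa1 1429626_at differed by 0.28 and Sftpc 1438290_x_at by -0.21, neither called. The flutamide difference at GD18 minus that at GD17 was -0.56 for Sftpa1 (standard error 0.34, adjusted p = 0.549), -0.73 for Sftpd (standard error 0.40, adjusted p = 0.4985), -0.11 for Sftpb (adjusted p = 0.8769) and -0.17 for Sftpc (adjusted p = 0.5396). It was -0.58 for Sftpa1 1429626_at and -0.35 for Sftpc 1438290_x_at, neither called. A smaller flutamide difference at GD18 was thus not shown for any of the 4 (0 with an unadjusted p under 0.05), and 0.364% of all probe sets were called in this interaction.

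Between the sexes 0 of 4 members were called by limma on either day, and 0 had an unadjusted p under 0.05. At GD17, where 4.1% of all probe sets were called between 17 m and 17 f, the difference was -0.16 for Sftpa1 (interval -0.68 to 0.35), 0.07 for Sftpb (interval -0.24 to 0.38), 0.06 for Sftpc (interval -0.10 to 0.21) and -0.02 for Sftpd (interval -0.63 to 0.58), with overlapping pools in each. At GD18, with 1.85% of all probe sets called, the difference was -0.09 for Sftpa1 (interval -0.61 to 0.42), -0.26 for Sftpb (interval -0.58 to 0.05), -0.02 for Sftpc (interval -0.17 to 0.14) and -0.20 for Sftpd (interval -0.80 to 0.40). Without 18 m pool 3 the Sftpd difference was -0.32. With all pools, Sftpb had no overlap at GD18, since 18 m was at 11.57, 11.56 and 11.49 and 18 f at 11.94, 11.74 and 11.73. Nor had Sftpa1 1429626_at, at 10.29, 10.33 and 10.37 in 18 m and 10.72, 10.49 and 10.54 in 18 f. Pools lay apart in this direction for 7.33% of all probe sets. The sex difference of 1429626_at was -0.05 at GD17 and -0.26 at GD18, and that of Sftpc 1438290_x_at 0.03 and 0.11, none called. The sex difference at GD18 minus that at GD17 was largest for Sftpb, at -0.33 (interval -0.78 to 0.11, adjusted p = 0.4075), and 0 of 4 genes were called or had an unadjusted p under 0.05, where 6.54% of all probe sets were called. It was -0.21 for Sftpa1 1429626_at and 0.09 for Sftpc 1438290_x_at, neither called.

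The level in flutamide-treated males at GD17 was also set against that of vehicle fetuses a day later. All 4 genes were called lower in 17 flut than in 18 m and than in 18 f, where 9.96% and 12.5% of all probe sets were called lower. Sftpd differed by -2.96 from 18 m and by -3.16 from 18 f (7.79-fold and 8.95-fold lower), and Sftpa1 by -1.88 and -1.97 (3.68-fold and 3.93-fold lower). Sftpa1 1429626_at differed by -2.38 and -2.63, both called, and Sftpc 1438290_x_at by -0.06 and 0.05, neither called. For Sftpb the differences were -1.09 and -1.36, and for Sftpc -0.28 and -0.29 (1.21-fold and 1.22-fold lower, adjusted p = 0.01623 and 0.007699). Without 17 flut pool 2 the Sftpc difference from 18 m was -0.27 and not called (adjusted p = 0.05648), so 3 of 4 were then called. With any other pool left out, all 4 genes kept both calls.

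Genes that store, process and load surfactant moved beside the members between the days. Of 13 measured genes of this list, 9 were called higher and 1 lower in males at GD18, 10 higher and 0 lower in females, and 9 higher and 0 lower in flutamide-treated males, with median differences of 0.89, 0.99 and 0.70. For this list and those below, the share of all probe sets called higher at GD18 was 12.4%, 16.5% and 9.61% in these groups. The share called in either direction was 25%, 33.6% and 20.3%. Slc34a2, the phosphate transporter of type II cells, rose by 3.39 in males, 3.73 in females and 2.61 in flutamide-treated males. Napsa, an aspartic protease that cleaves the surfactant protein B precursor, rose by 2.27, 2.19 and 1.64, and Abca3, the lipid transporter of lamellar bodies, by 1.46, 1.63 and 1.31. Itch, a ubiquitin ligase, was the exception among those called, with a difference of -0.39 in males and 0.68 in females.

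In 17 flut, 5 of the 13 were called higher than in 17 m and 0 lower, with a list median of 0.24. These were Slc34a2 (1.22, adjusted p = 0.045), Napsa (0.84, adjusted p = 0.036), Ctsh (0.56, adjusted p = 0.043), a cathepsin that also processes surfactant protein B, Sec14l3 (0.53, adjusted p = 0.028), a lipid transfer protein, and Lpcat1 (0.36, adjusted p = 0.035), which remodels surfactant phosphatidylcholine. Slc34a2 was at 9.92, 9.65 and 9.79 in 17 flut, against 8.31, 9.50 and 7.88 in 17 m, and pool 2 of 17 m was again the highest of its group. This count was 7 without 17 m pool 2 and 0 without any of the other 5 pools, with the shares of all probe sets called higher in those fits as given above for the members. At GD18 1 of the 13, Itch, was called higher in 18 flut than in 18 m (0.46, adjusted p = 0.0041).

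Transcription factors known to act on surfactant genes moved in both directions between the days. Of 14 measured, 8 were called higher and 1 lower in males and in females, and 6 higher and 2 lower in flutamide-treated males, with medians of 0.27, 0.41 and 0.19. Stat3, the effector of interleukin-6 family signals, rose by 0.82 in males, 1.15 in females and 0.79 in flutamide-treated males, and Cebpd rose by 1.11, 1.40 and 1.13. Cebpa, whose loss in mouse lung blocks type II cell maturation, was higher by 1.32, 0.95 and 0.83. Nkx2-1 differed by -0.13 in males (adjusted p = 0.64), 0.21 in females (adjusted p = 0.38) and 0.26 in flutamide-treated males (adjusted p = 0.33), so no change was shown for it. Sox9, a factor of the distal progenitors, fell by 0.68, 0.54 and 0.52. In 17 flut against 17 m 0 of the 14 were called (2 with an unadjusted p under 0.05), and in 18 flut against 18 m Nfia was called lower, with a difference of -0.32 (adjusted p = 0.026).

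Receptors and clearance genes were called higher at GD18 in 5 of 10 in males, and in 6 of 10 in females and in flutamide-treated males, with 0, 1 and 1 called lower. Adgrf5, the adhesion receptor that restrains the surfactant pool, rose by 1.21 in males, 1.40 in females and 1.07 in flutamide-treated males. Of the 10, 0 were called in 17 flut against 17 m (3 with an unadjusted p under 0.05) and 0 in 18 flut against 18 m (1 with an unadjusted p under 0.05). Of 5 other collectins measured, 0 were called higher in any of the 3 day comparisons. In females Colec10 (-0.59) and Colec12 (-0.30) were called lower. There the liver score was 1.66 and 1.68 in 17 f pools 2 and 3, against -2.26 to -0.72 in 18 f. Mbl2 differed by 0.50 in males, -0.20 in females and 0.56 in flutamide-treated males, and was not called. Mbl1, the neighbour between Sftpa1 and Sftpd, was at 6.21, 6.36 and 7.11 in 18 m, against 6.04, 5.97 and 6.37 in 17 m, a difference of 0.43 (adjusted p = 0.098), and differed by 0.02 in females. The value of 7.11 was in 18 m pool 3, which had a liver score of 3.17. What part the liver signal plays in the collectin values was not tested. In both flutamide comparisons 0 of the 5 were called or had an unadjusted p under 0.05.

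Markers of other cell types moved with the members, and their part in the member values was not tested. General epithelial markers were mixed between the days, with 6 of 10 called higher and 2 lower in males, 5 and 3 in females, and 4 and 3 in flutamide-treated males. Cdh1, the epithelial cadherin, rose by 0.43 in males, while Epcam fell by 0.36. Alveolar type I cell markers were called higher in 7, 6 and 7 of 9 and lower in 1 of 9 each, and club and ciliated cell markers higher in 6, 7 and 4 of 7 and lower in 0. Scgb1a1, the club cell secretoglobin, rose by 4.93 in males, 4.82 in females and 3.74 in flutamide-treated males, and Ager, the type I cell receptor RAGE, by 2.05, 2.15 and 1.52. In 17 flut against 17 m, Ager (0.62), Hopx (0.59), Scgb1a1 (1.73) and Ccdc113 (0.66) were called higher and Igfbp2 (-0.51) lower, while 0 of 10 general epithelial markers were called (4 with an unadjusted p under 0.05). The count of type I markers called higher, 2 with all pools, was 4 without 17 m pool 2, 1 without 17 flut pool 2 and 0 without each of the other 4. That of club and ciliated markers, also 2, was 4 without 17 m pool 2, 1 without 17 flut pool 2 or 17 m pool 3 and 0 without each of the other 3. The shares of all probe sets called higher in those fits are given above for the members. In 18 flut against 18 m, Cyp2f2, a club cell monooxygenase, was called higher (0.50). The type I score ran from 0.44 to 0.60 in 18 m, from -0.54 to -0.30 in 17 flut and from -1.01 to -0.39 in 17 m. The club and ciliated score ran from 0.40 to 0.48 in 18 m, from -0.32 to -0.13 in 17 flut and from -0.86 to -0.38 in 17 m.

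Among markers outside the epithelium, 3 of 8 mesenchymal, 4 of 6 endothelial, 3 of 6 leukocyte and 1 of 6 erythroid genes were called higher in males at GD18, and 1, 0, 0 and 1 lower. In females 7, 5, 2 and 1 were called higher and 0, 0, 0 and 4 lower, and in flutamide-treated males 6, 5, 3 and 1 higher and 0, 0, 0 and 1 lower. Of all probe sets, 12.4% were called higher in males, 16.5% in females and 9.61% in flutamide-treated males, and 1 of 6 erythroid genes was near that share. Of these genes, Col1a1 and Col1a2, the collagen I chains, were called lower in 17 flut than in 17 m (-0.52 and -0.32). Of the 8 pancreas and 8 liver genes, 0 were called in males or flutamide-treated males, and 6 and 3 were called lower at GD18 in females, where 2 of the 3 GD17 pools were the pancreas-rich ones. Of all probe sets, 33.6% were called in either direction in that comparison and 16.5% higher.

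The members followed each other closely. Over the 18 pools, Pearson's r between any 2 of the 4 genes, by the probe set of highest mean, ran from 0.96 for Sftpc and Sftpd to 0.99 for Sftpa1 and Sftpb. All 18 values share the step between the days, so the r was also taken on the deviations of each pool from its group mean, where it ran from 0.72 for Sftpc and Sftpd to 0.96 for Sftpa1 and Sftpb. Pools share their RNA and their array across genes, and these values are descriptions.

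Of 11379 genes other than the members with a mean at or above the median of all probe sets, those most like each member over the 18 pools were named by r. For Sftpa1 they were Cxcl15 (r = 0.998), Napsa, Scgb1a1, Chia1 and Scgb3a2. For Sftpb they were Emp2 (0.998), Clic5, Cxcl15, Lgi3 and AU021092, and for Sftpc AU021092 (0.987), Fmo2, Dapk1, Dram1 and Ppp1r14c. Those of Sftpd were Ager (0.996), Scgb1a1, Retnla, Cxcl15 and Scube2. Cxcl15, a chemokine of lung epithelium, thus stood among the 5 nearest genes of 3 members. On deviations from the group means the r of these pairs ran from 0.75 for Sftpc and Ppp1r14c to 0.98 for Sftpa1 and Cxcl15. The pairs were picked by r over the same 18 pools, so a high r on deviations is partly a result of that choice. Within GD18 alone the r ran from 0.63 for Sftpc and AU021092 to 0.98 for Sftpb and Emp2.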

How the data were processed

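The authors hybridized lung RNA of pools of 3 fetuses, 3 pools for each of 6 groups, and made the deposited intensity of each probe set by robust multi-array analysis (RMA), which the methods give for background subtraction and normalization. The values, 6.61 to 30228, were found to be linear, and their log2 was taken here. Limma is named in the submitters' processing notes, with no version. Scan dates were not used here, and batches were not tested. Since RMA normalizes arrays to one another, levels are relative to the whole array.

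The 64 AFFX controls among the 45101 probe sets were not tested. Symbols came from the platform annotation. Group means were fitted over all 18 arrays (12 residual degrees of freedom) with limma 3.58.1 in R 4.3.3 (statmod 1.5.0, jsonlite 2.0.0), with eBayes and Benjamini-Hochberg adjustment over 45037 probe sets within each of 13 comparisons. Figures used Python 3.11.15 and matplotlib 3.10.9. The number of arrays limits the precision. The fit was tested on simulated data.

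The members, gene lists and motifs were chosen with earlier results of these data known, and the motifs with the promoter sequences in view. Of the genes in the 13 lists, 6 were not analysed here. Genes named beside the members were up to 4 of each list with the smallest p in a day or flutamide comparison, list genes called between flutamide-treated and vehicle males, and the 5 genes most like each member. Cebpa, Sox9 and Nkx2-1 were added after their values were seen. Alternatives changed the normalization, the arrays' weights, the prior of the variance, the groups in the fit, the threshold or the probe sets kept (bright ones, 1 for each gene, or with AFFX controls), added a replicate block, or left out each pool. Leaving out pools that stood apart, and an indicator of the pancreas-rich ones, were added after seeing the data.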

Additional observations from a re-analysis of the deposited data

How the results depend on the processing

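Over 78 differences of member probe sets and the alternatives other than leaving out pools or adding the pancreas indicator, 786 of 819 values kept their direction and their side of the threshold, 12 lost a call, 11 gained one and 10 changed sign. The counts of members called between GD18 and GD17, and between 17 flut and 18 f, were 4 under all alternatives run. Between 17 flut and 18 m the count was 3 at an adjusted p under 0.01 and without 17 flut pool 2, where Sftpc lost its call, and 4 otherwise. Fitting only the groups compared ended the calls of Sftpc 1438290_x_at in 18 flut against 18 m (adjusted p = 0.2399) and against 17 flut (adjusted p = 0.057), and that of Sftpa1 1429626_at in 17 flut against 17 m (adjusted p = 0.05157). The counts that moved most were both at GD17, and the cause was not tested. Between 17 flut and 17 m, where 0 genes were called, the count was 2 after quantile normalization was applied again, 1 with cyclic loess, 2 when dim probe sets were dropped, 1 with array weights, 2 with a trend in the variance prior and 3 with 18 m 3 and 18 flut 3 left out, and it ran from 0 to 4 with each pool left out. Between 17 flut and 17 f, where 2 were called, it was 1 with centred array medians, 3 when dim probe sets were dropped, 4 with array weights, 0 at an adjusted p under 0.01, 0 without the 3 pancreas-rich pools or with an indicator of them, and from 0 to 4 with each pool left out.

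The replicate numbers are not known to pair the pools. Of 45 pairs with the same number, 12 had deviations correlated above 0.1 (range -0.32 to 0.37, mean 0.008). Of 90 other pairs, 20 did (range -0.53 to 0.44, mean -0.005). With the replicate block, 1 member was called between 17 flut and 17 f, and the other counts were the same.

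Signs changed for small differences. For Sftpc 1438290_x_at the GD18 minus GD17 difference in females became -0.043 with centred medians, -0.043 after quantile normalization, -0.046 with loess, -0.0089 without the pancreas-rich pools and -0.042 with their indicator (range with a pool left out -0.031 to 0.035). The same probe set gave -0.0011 for 17 m minus 17 f after quantile normalization (-0.0098 to 0.069), -0.0044 for 17 flut minus 17 m with loess and -0.015 without the pancreas-rich pools (-0.020 to 0.067), and -0.00038 for 17 flut minus 17 f with loess. With array weights, 17 m minus 17 f became 0.26 for Sftpd, 0.076 for Sftpa1 and 0.21 for Sftpa1 1429626_at, and the sex by day interaction of Sftpa1 -0.18. Without the pancreas-rich pools, and with their indicator, the flutamide by day interaction of Sftpb was 0.030 and 0.0083, and the sex by day interaction 0.27 and 0.14 for Sftpd and 0.16 and 0.11 for Sftpa1 1429626_at. The indicator also gave -0.052 for Sftpb in 17 m minus 17 f, and leaving out 18 m 3 and 18 flut 3 gave -0.021 for Sftpd in 18 flut minus 18 f.

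With each pool left out, 17 m minus 17 f ran from -0.047 to 0.11 for Sftpc, -0.33 to 0.34 for Sftpd, -0.49 to 0.091 for Sftpa1, -0.32 to 0.29 for Sftpa1 1429626_at and -0.14 to 0.21 for Sftpb. The sex by day interaction ran from -0.13 to 0.030 for Sftpc, -0.54 to 0.13 for Sftpd, -0.18 to 0.40 for Sftpa1 and -0.55 to 0.065 for Sftpa1 1429626_at. The flutamide by day interaction of Sftpb ran from -0.32 to 0.030, 18 flut minus 18 f of Sftpd from -0.021 to 0.18, and 18 m minus 18 f of Sftpc from -0.032 to 0.012. Those differences, and all whose sign changed, had not passed the threshold with all pools. Leaving out the pancreas-rich pools or 18 m 3 and 18 flut 3, and the indicator, were chosen after seeing the data. Another background correction cannot be made from summarized RMA values and was not run.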
